A study of Homo sapiens with 4 samples.

Results

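Keratins are the intermediate filament proteins of epithelial cells, and a filament is built only when a type I keratin pairs with a type II keratin. In the simple epithelium that lines the gut, the type II keratin KRT8 pairs mainly with the type I keratins KRT18 and KRT19, while KRT20 marks differentiated intestinal cells. KRT7 is a type II keratin of ducts, bladder and lung that normal colon epithelium largely lacks, and KRT80 is a type II keratin that is usually found at cell junctions. The 7 genes described here, KRT7, KRT8, KRT80, KRT18, KRT19, KRT20 and KRT23, were taken by symbol from 20812 genes, and each symbol matched 1 row in every file. The set was chosen by symbol with earlier results of these data in view, mainly the ratio of indole to DMF in wild type cells, where KRT80 and KRT7 were extreme. That ratio, and every value from the same pair of libraries, is therefore a description.

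The cells were HCT116, a human colon cancer cell line, either unmodified and labelled wild type or overexpressing human IDO1, the enzyme that opens the ring of tryptophan. Each line was kept for 24 h with 1 mM indole, a bacterial product of tryptophan, or with DMF, the solvent, and the DMF groups are called solvent-treated. Each of the 4 groups has 1 column of counts, treated as 1 library, so no p-value is given for a pair of libraries. The sources used here give neither the promoter of the IDO1 construct nor whether the line was 1 clone or a pool. Every gene was read from 1 short PCR target (for KRT7 the target AMPL26896345, for KRT80 AMPL21107773), whose place in the transcript the files do not give.

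Totals ranged from 18283862 to 22736172 reads, and 14892 to 15505 targets had reads. The label check held: IDO1 itself had 3451 reads under DMF and 2440 under indole in the IDO1 line, where the wild type libraries had 0 and 2. Indole-treated wild type was the library least like the others: 252 of 8679 genes were at least 2-fold from solvent-treated wild type and 395 of 8765 from indole-treated IDO1 cells, while indole-treated IDO1 cells differed that much from solvent-treated wild type in 31 of 8543 genes (0.363%). Of 8 colon epithelial markers measured, EPCAM, CDH1 and CDX2 were at 10 CPM (read counts scaled to library size) or more, whereas GPA33 and CEACAM5 had 0 reads in all 4 libraries and VIL1, the microvillus protein villin, had 2 at most. HCT116 thus carried EPCAM, CDH1 and CDX2 and lacked several other colon epithelial markers of the list. The summed level of 5 leukocyte markers lay between 6.82 and 9.03 CPM, most of it from CD68, with PTPRC and CD3E at 0 in every library. That of 4 endothelial markers lay between 3.76 and 4.69 CPM, nearly all from PECAM1, with CDH5 at 0. The 6 fibroblast markers summed to 74.7 to 98.6 CPM, nearly all from COL1A1, with COL1A2 and DCN at 0. The summed level of 9 markers of stratified epithelium lay between 0.0523 and 0.827 CPM, with TP63 and IVL at 0 in every library.

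The coding sequences show how far apart the 7 genes are, which bears on whether reads could be shared among them. Between members of 1 type, 53.6% to 70.2% of aligned coding bases were identical over 9 pairs, and between types 42.5% to 49.4% over 12 pairs. Over the whole coding sequence KRT7 and KRT8 were the closest pair, while KRT7 and KRT80 were 58.7% identical. Single stretches can be much closer. In the 60 bases most alike across the 7 genes, KRT80 matched KRT8 at 59 and KRT7 matched KRT8 at 54. Since the place of each target is not given, whether KRT80 or KRT7 shared reads with KRT8 was not tested. GENCODE lists 50 pseudogenes of KRT8, 68 of KRT18 and 5 of KRT19, and 0 of KRT7, KRT20, KRT23 and KRT80. The values of KRT8, KRT18 and KRT19 are therefore uncertain to the extent that reads of such copies were counted with them. KRT8 and KRT18 lie side by side on opposite strands and their RefSeq spans overlap, so without strand in the counts reads from the shared part cannot be told apart. The pseudogene targets in the files had few reads, with 15 to 20 for KRT19P2, 2 to 3 for KRT18P55 and 0 to 4 for KRT8P41.

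KRT7 had 188 reads in solvent-treated wild type, 1150 in indole-treated wild type, 362 in solvent-treated IDO1 cells and 439 in indole-treated IDO1 cells. Scaled by TMM, which sets libraries to a common level from the bulk of their genes, these were 8.84, 59.4, 15.9 and 22.9 CPM. Indole-treated wild type was the highest and solvent-treated wild type the lowest, with both libraries of the IDO1 line in between. KRT7 was 6.72-fold higher with indole in wild type (5.76 to 7.89), where the bracket is the 95% interval of counting error between 2 libraries, here and below. In the IDO1 line the same ratio was 1.45 (1.26 to 1.67).

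KRT80 had 94 reads in solvent-treated wild type, 731 in indole-treated wild type, 151 in solvent-treated IDO1 cells and 155 in indole-treated IDO1 cells, or 4.42, 37.8, 6.62 and 8.10 CPM. Its order over the 4 libraries was that of KRT7, except that the 2 libraries of the IDO1 line did not differ beyond counting error. It was 8.55-fold higher with indole in wild type (6.89 to 10.7), against 1.22 in the IDO1 line (0.972 to 1.54). On the log2(CPM + 1) scale, used with a minimum of 10 CPM in 1 of the 2 libraries, KRT80 ranked 1 and KRT7 ranked 2 from the top among the 8679 genes compared in wild type.

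The response in wild type was 4.65 times that in the IDO1 line for KRT7 (3.78 to 5.72) and 6.98 times for KRT80 (5.12 to 9.53). These intervals cover counting error only, and the difference between lines was not tested, since each group has 1 column of counts. Both values are a description, because the wild type response was in view when the set was chosen. That choice favours a larger response in wild type for KRT7 and KRT80.

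**Figure D1:**
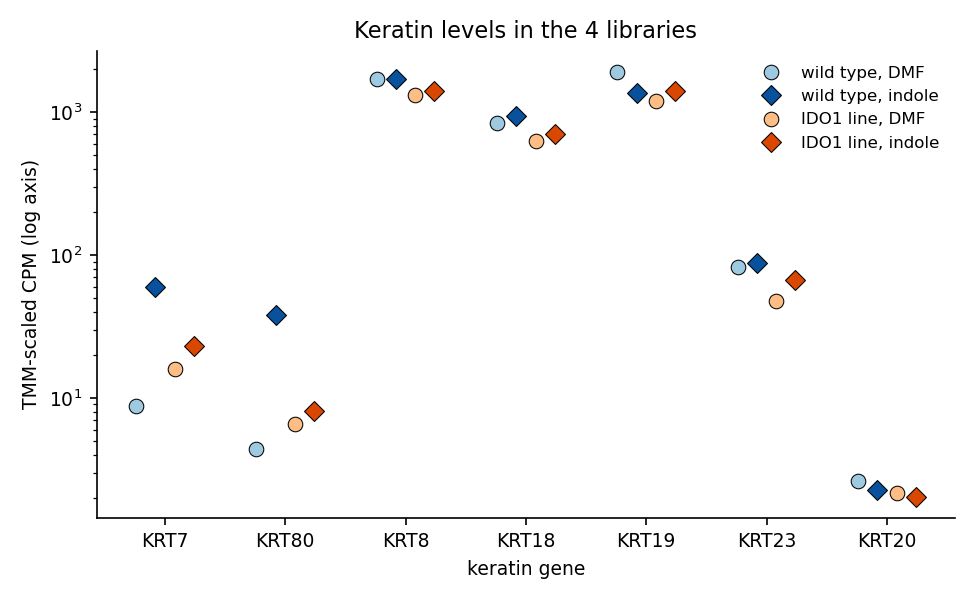
TMM-scaled CPM (log axis) of the 7 keratins in the 4 libraries, 1 point per library, circles for DMF and diamonds for indole. KRT7 (8.84 to 59.4 CPM) and KRT80 (4.42 to 37.8 CPM) are highest in indole-treated wild type, while KRT8, KRT18, KRT19 and KRT23 vary by less than 2-fold and KRT20 stays between 2.04 and 2.63 CPM.

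KRT8 and KRT18, the filament pair of simple epithelia, differed little with indole. KRT8 had 35991 reads in solvent-treated wild type, 33276 in indole-treated wild type, 30308 in solvent-treated IDO1 cells and 26837 in indole-treated IDO1 cells, or 1692, 1719, 1328 and 1402 CPM. Both wild type libraries were above both libraries of the IDO1 line. The ratio of indole to DMF was 1.02 in wild type (1.00 to 1.03) and 1.06 in the IDO1 line (1.04 to 1.07). KRT18 had 17803 reads in solvent-treated wild type, 18161 in indole-treated wild type, 14379 in solvent-treated IDO1 cells and 13540 in indole-treated IDO1 cells, or 837, 938, 630 and 707 CPM. It had the same order as KRT8, and its ratio of indole to DMF was 1.12 in each line, with intervals of 1.10 to 1.14 in wild type and 1.10 to 1.15 in the IDO1 line.

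KRT19, the other type I keratin of simple epithelia, went the opposite way in the 2 lines. Its reads were 40622 in solvent-treated wild type, 26244 in indole-treated wild type, 27202 in solvent-treated IDO1 cells and 26991 in indole-treated IDO1 cells, or 1910, 1356, 1192 and 1410 CPM. Solvent-treated wild type stood above the other 3 libraries, which lay within 1.18-fold of each other. With indole KRT19 was 1.41-fold lower in wild type (1.39 to 1.43) and 1.18-fold higher in the IDO1 line (1.16 to 1.20).

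KRT23, a type I keratin first found as induced by histone deacetylase inhibitors, had 1753 reads in solvent-treated wild type, 1708 in indole-treated wild type, 1089 in solvent-treated IDO1 cells and 1277 in indole-treated IDO1 cells, or 82.4, 88.3, 47.7 and 66.7 CPM. Solvent-treated IDO1 cells were the lowest. Its ratio of indole to DMF was 1.07 in wild type (1.00 to 1.15) and 1.40 in the IDO1 line (1.29 to 1.52). KRT20 had 56, 44, 49 and 39 reads in the same order of libraries, or 2.63, 2.27, 2.15 and 2.04 CPM, and none of its ratios differed from 1 beyond counting error. With so few reads a difference in KRT20 smaller than about the width of its interval, 0.568 to 1.30 for indole in wild type, was not detectable at this depth.

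Of the 6 keratins that reached 10 CPM in wild type, 2 were at least 2-fold higher with indole and 0 lower, where 2.9% of all 8679 genes were that far apart, 1.36% higher and 1.54% lower. Since this contrast put KRT7 and KRT80 in the set, nothing is read from the count. The median log2 ratio of the 6 was 0.13, against -0.04 over all genes. In the IDO1 line, 0 of 5 keratins compared were at least 2-fold apart, where 0.0821% of 8523 genes were, 0.0469% higher and 0.0352% lower. All 5 lay above 0, with a median of 0.24 against -0.01 over all genes. KRT7 ranked 61 and KRT23 ranked 93 from the top in the IDO1 line, at log2 ratios of 0.51 and 0.47.

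**Figure D2:**
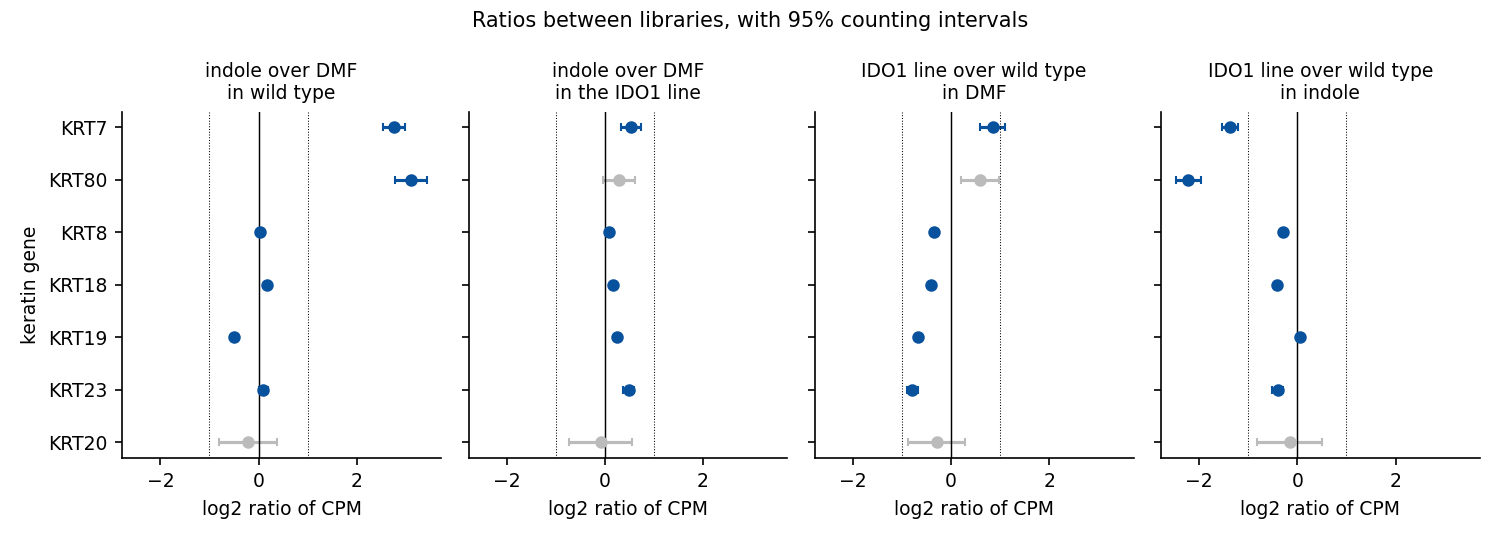
Log2 ratio of TMM-scaled CPM, without a pseudocount, for each keratin in the 4 comparisons between libraries. Bars are 95% counting intervals, dotted lines mark 2-fold, and grey points are genes under 10 CPM in both libraries. KRT7 and KRT80 lie beyond 2-fold in the first and last comparison, which share the library of indole-treated wild type.

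**Figure D3:**
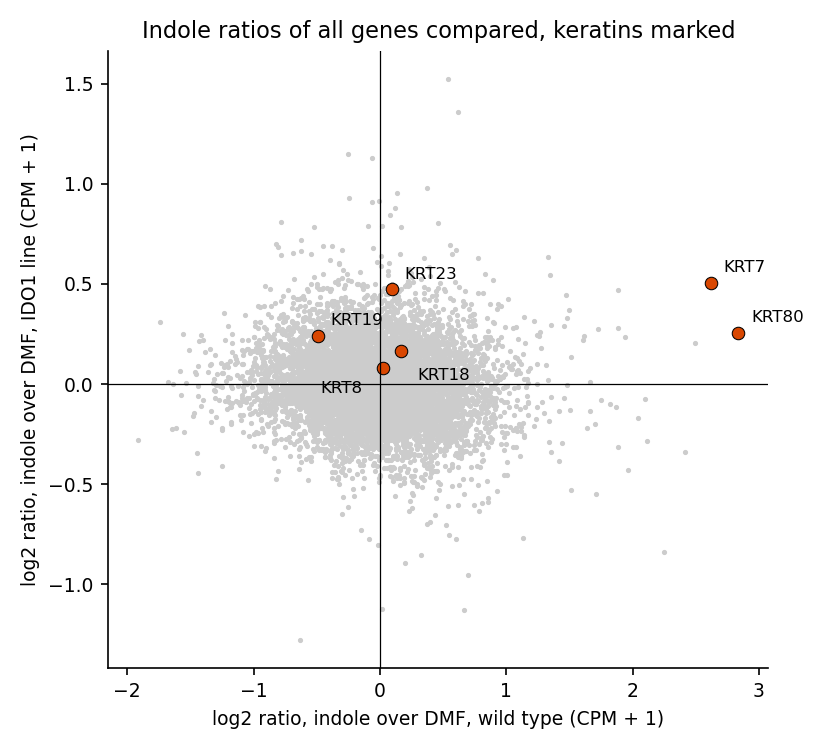
Log2 ratio of indole to DMF (CPM + 1) in wild type (horizontal) and in the IDO1 line (vertical) for every gene compared, keratins marked and named. KRT80 and KRT7 are at the far right at 2.84 and 2.62 but at 0.26 and 0.51 on the vertical axis, and KRT19 lies left of and above the origin.

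Ratios of reads within a library do not depend on scaling between libraries, although each target amplifies with its own efficiency, so only their differences between libraries are used. KRT8 reads per KRT18 read were 2.02 in solvent-treated wild type (1.99 to 2.06), 1.83 in indole-treated wild type (1.80 to 1.87), 2.11 in solvent-treated IDO1 cells (2.07 to 2.15) and 1.98 in indole-treated IDO1 cells (1.94 to 2.02). The balance of this filament pair was lowest in indole-treated wild type. KRT19 reads per KRT18 read were 2.28 (2.24 to 2.32) in solvent-treated wild type, 1.45 (1.42 to 1.47) in indole-treated wild type, 1.89 (1.85 to 1.93) in solvent-treated IDO1 cells and 1.99 (1.95 to 2.04) in indole-treated IDO1 cells. The type I side of the keratin pool therefore held fewer KRT19 reads per KRT18 read in indole-treated wild type than in the other 3 libraries.

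On the type II side, KRT8 reads per KRT7 read went from 191 (166 to 222) in solvent-treated wild type to 28.9 (27.3 to 30.7) with indole. The same ratio was 83.7 (75.5 to 93.1) in solvent-treated IDO1 cells and 61.1 (55.6 to 67.3) with indole. KRT7 reads per KRT80 read were 2.0 (1.55 to 2.59), 1.57 (1.43 to 1.73), 2.40 (1.98 to 2.92) and 2.83 (2.35 to 3.42) in solvent-treated wild type, indole-treated wild type, solvent-treated IDO1 cells and indole-treated IDO1 cells. The balance of KRT7 to KRT80 was thus lower in indole-treated wild type than in either IDO1 library. Taking the 7 genes as a pool, KRT7 and KRT80 gave 0.292% of the keratin reads in solvent-treated wild type (exact Clopper-Pearson interval 0.259% to 0.328%), 2.31% in indole-treated wild type (2.21% to 2.42%), 0.698% in solvent-treated IDO1 cells (0.639% to 0.760%) and 0.857% in indole-treated IDO1 cells (0.790% to 0.929%). The 7 genes together gave 0.426%, 0.445%, 0.323% and 0.363% of all reads in those libraries.

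**Figure D4:**
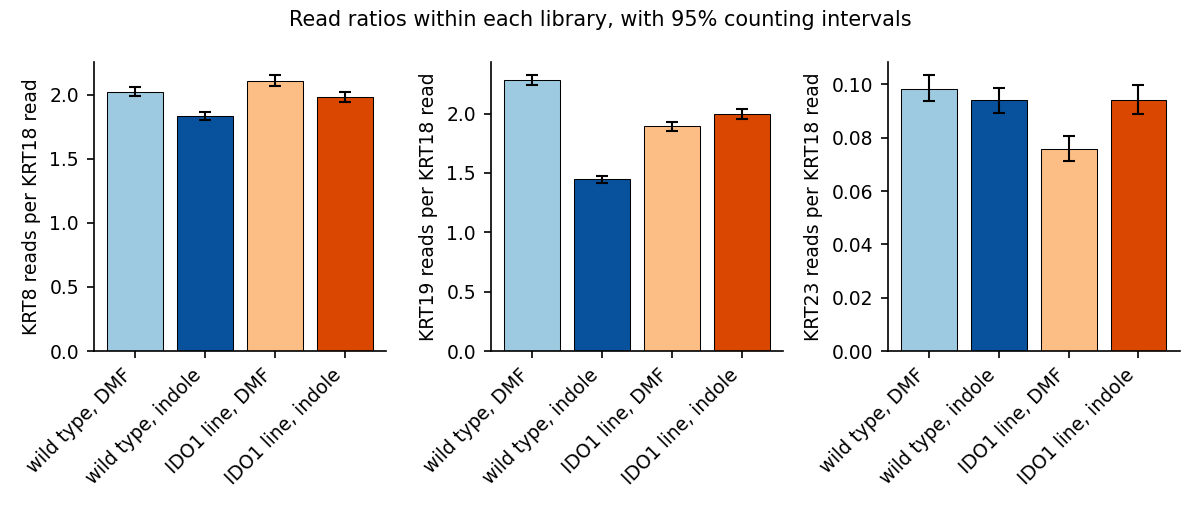
Reads of KRT8, KRT19 and KRT23 per KRT18 read within each of the 4 libraries, with 95% counting intervals as bars. KRT19 per KRT18 is 1.45 in indole-treated wild type against 1.89 to 2.28 elsewhere, and KRT23 per KRT18 is lowest, at 0.0757, in solvent-treated IDO1 cells.

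The lines were then compared within each treatment. In DMF the IDO1 line had more KRT7, 1.79-fold (1.50 to 2.15), and more KRT80, 1.50-fold (1.15 to 1.96). KRT80 stayed under 10 CPM in both DMF libraries, so it is not among the 5 keratins compared. The IDO1 line had less of the keratins other than KRT7 that reached 10 CPM. The difference was 1.27-fold for KRT8 (1.25 to 1.29), 1.33-fold for KRT18 (1.30 to 1.36), 1.60-fold for KRT19 (1.58 to 1.63) and 1.73-fold for KRT23 (1.60 to 1.86). None of the 5 keratins compared reached 2-fold, and 0.447% of 8500 genes did, 0.282% higher and 0.165% lower. KRT7 ranked 33 from the top, and KRT23 and KRT19 ranked 40 and 64 from the bottom. The comparison shares solvent-treated wild type with the indole ratio that was in view when the set was chosen. Its values for KRT7 and KRT80 are therefore not a separate observation.

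In indole the order of the lines turned for KRT7 and KRT80. The IDO1 line had 2.59-fold less KRT7 (2.32 to 2.90) and 4.66-fold less KRT80 (3.92 to 5.58), and these 2 of 6 keratins were at least 2-fold apart, where 4.51% of 8765 genes were, 2.28% higher and 2.22% lower. KRT8, KRT18 and KRT23 were 1.23-fold (1.21 to 1.25), 1.33-fold (1.30 to 1.36) and 1.32-fold (1.23 to 1.42) lower in the IDO1 line. KRT18 thus differed between the lines by the same factor with and without indole. KRT19 was 1.04-fold higher in the IDO1 line (1.02 to 1.06), or 0.986 with library totals. The comparison uses the same indole-treated wild type library as the first one, so its values for KRT7 and KRT80 are not a separate observation.

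An additive fit over all 4 libraries, with line and treatment as terms, tested each gene for a difference between the lines. With edgeR's quasi-likelihood test and Benjamini-Hochberg adjustment over 13122 genes, 0 of the 7 keratins passed, where 2.45% of all genes did, 2.03% rising and 0.419% falling. At an unadjusted p under 0.05 were KRT23 and KRT80, where 1311 of the 13122 genes were. DESeq2 also called 0 of the 7. KRT23 had the smallest adjusted p, 0.233, at -0.60 on the log2 scale (SE 0.220), lower in the IDO1 line in both treatments. KRT80 had -0.91 (SE 0.401, adjusted p 0.410), a mean of opposite directions, since the IDO1 line had more of it in DMF and less in indole. KRT18 had -0.42 (SE 0.261, adjusted p 0.674) and KRT8 -0.33 (SE 0.277, adjusted p 0.796), each lower in the IDO1 line in both treatments. The fit leaves 1 residual degree of freedom, which holds the interaction of line and treatment together with noise of culture and library. Its p-values rest on the spread among 4 libraries. They do not measure the spread between replicate cultures of a group, since each group has 1 column of counts.

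In the same fit, 0 of 13122 genes passed for indole, and 448 were at an unadjusted p under 0.05. KRT7 stood at 1.64 on the log2 scale (SE 0.335, adjusted p 0.509) and KRT80 1.72 (SE 0.404, adjusted p 0.858). Both passed with library totals, where 6 of 13122 genes did, and with no filter on low counts, where 10 of 16748 did. KRT7 passed with at least 10 CPM in 2 libraries, where 5 of 8467 genes did, a filter that leaves KRT80 out. Because these genes were chosen with the indole ratio in wild type in view, the fit adds no independent evidence.

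On a list of 8 genes known from embryonic kidney lines, 7 rose in the IDO1 line in the additive fit, where 2.03% of all genes rose. The list was drawn up with the difference between these lines known, so this count is a description only. The genes UCHL1, CADM1, HOXD13 and NEFM had 0 reads in both wild type libraries. The summed level of the list was 91.5 and 53.3 CPM in solvent-treated and indole-treated wild type and 142 and 165 CPM in the IDO1 line, and GAL alone made up nearly all of the wild type sum. Their part in the lower KRT8, KRT18, KRT19 and KRT23 and the higher KRT7 and KRT80 of the IDO1 line in DMF was not tested.

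KRT80 and KRT7 are also neighbours in the type II keratin cluster of chromosome 12, where RefSeq lists no protein-coding gene between them. KRT86, KRT81 and KRT83, hair keratins, follow KRT7 in that order, and KRT8 and KRT18 lie at the far end of the cluster, next to each other. KRT86 had 14 reads in solvent-treated wild type, 35 in indole-treated wild type, 6 in solvent-treated IDO1 cells and 29 in indole-treated IDO1 cells. It was 2.75-fold higher with indole in wild type (1.44 to 5.53) and 5.76-fold in the IDO1 line (2.35 to 17). KRT81 had 0, 12, 4 and 2 reads and KRT83 had 1, 14, 0 and 2 in the same order of libraries. Each of these 3 genes thus had more reads with indole than with DMF in wild type, at levels under 2 CPM, and because they are near-identical copies of each other their reads may be shared. On the other side of KRT80, the 7 protein-coding genes in the files had log2(CPM + 1) ratios between -0.23 and 0.25 in wild type. Only 2 of them, ACVR1B and C12orf44, reached 10 CPM, and the added 1 CPM holds ratios of low genes near 0. ACVR1B, an activin receptor, had a ratio of 1.14 (0.993 to 1.31), and C12orf44 had 0.977 (0.892 to 1.07). NR4A1, a nuclear receptor that stayed under 10 CPM, had 1.08 (0.848 to 1.37). The neighbours were chosen after the values of KRT7 and KRT80 were seen.

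**Figure D5:**
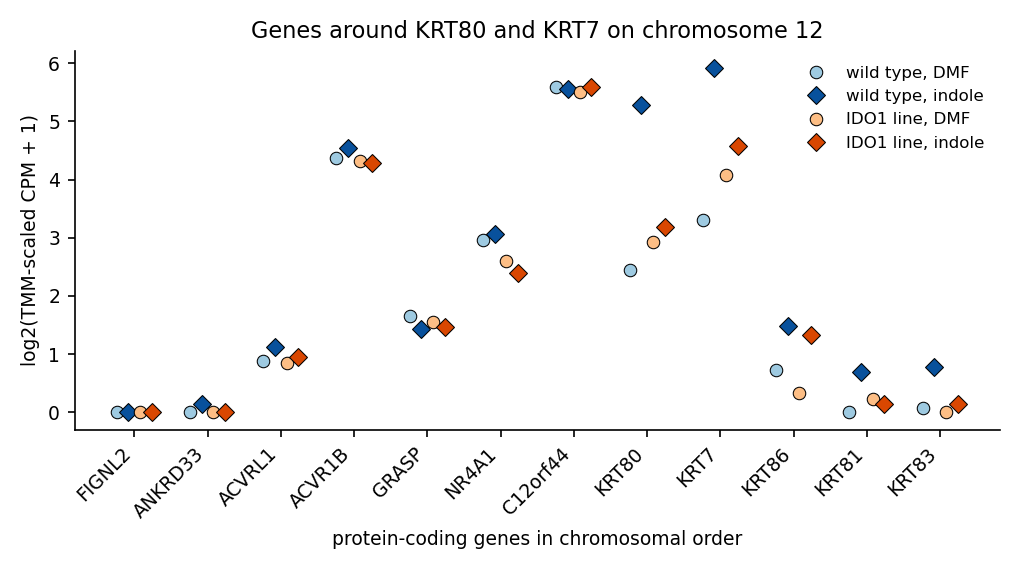
Log2(TMM-scaled CPM + 1) in the 4 libraries for the protein-coding genes around KRT80 and KRT7, in their order on chromosome 12 (not to distance). KRT80 and KRT7 in indole-treated wild type stand well above their other 3 libraries. The genes left of KRT80 lie close together across libraries, but most of them are under 10 CPM.

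KRT20 and KRT23 are direct neighbours in the type I cluster of chromosome 17, and KRT15 lies next to KRT19 there. KRT15, a keratin of basal cells, was the only one of the 47 other keratins to reach 10 CPM. It had 915 reads in solvent-treated wild type, 420 in indole-treated wild type, 639 in solvent-treated IDO1 cells and 627 in indole-treated IDO1 cells, or 43.0, 21.7, 28.0 and 32.8 CPM. Like KRT19, it was highest in solvent-treated wild type, lower with indole in wild type, by 1.98-fold (1.76 to 2.23), and higher in the IDO1 line, by 1.17-fold (1.05 to 1.31). Of the 47, 43 stayed under 1 CPM in every library and 20 had 0 reads in all of them. In the additive fit, 5 could be tested and 0 passed in either direction for line or for indole. Of all genes, 2.45% passed for the line and 0 for indole, so nothing is read from these counts.

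The genes whose 3 ratios to solvent-treated wild type were closest to those of KRT80 were, among genes at 10 CPM or more in 1 library, NTN5, KRT7, CHAC1, LOC100506123 and SLC16A6. Likeness was the Euclidean distance of the log2 ratios, which was 0.383 for NTN5 and 0.646 for KRT7. NTN5, a member of the netrin family of guidance proteins, had 36, 275, 58 and 59 reads in solvent-treated wild type, indole-treated wild type, solvent-treated IDO1 cells and indole-treated IDO1 cells. For KRT7 the closest were KRT80, NTN5 at 0.791, FRAT2 at 1.21, SLC16A6 at 1.34 and CHAC1 at 1.36. The distances are a description over 4 libraries. KRT18, KRT8, KRT23 and KRT19 lay at distances of 2.99, 3.11, 3.20 and 3.73 from KRT80. Their places were 4017, 5045, 5729 and 8350 in a set of 8845 genes. KRT18, KRT8 and KRT23 thus stood around the middle of the list, and KRT19 near its end.

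Genes that anchor keratin filaments at desmosomes or bind them were listed as the partners of the pathway, and 24 of 25 were in the files. With indole in wild type, 14 of 22 compared were above 0 and 8 below, with a median log2 ratio of 0.11. On the log2(CPM + 1) scale 0 were at least 2-fold apart, where 2.9% of all genes were, and PPL lay just under at 0.99. In the IDO1 line 7 of 20 were above 0, with a median of -0.04. Between the lines in indole, 3 of 22 were at least 2-fold lower in the IDO1 line and 0 higher, where 2.22% of all genes were lower and 2.28% higher. These were the plakins PPL, 2.32-fold (2.14 to 2.52), EVPL, 2.15-fold (2.04 to 2.26), and DST, 2.05-fold (1.86 to 2.25), which link keratin filaments to cell junctions. Each of the 3 was highest in indole-treated wild type, as KRT7 and KRT80 were: PPL stood at 50.03, 100.1, 43.6 and 43.2 CPM in solvent-treated wild type, indole-treated wild type, solvent-treated IDO1 cells and indole-treated IDO1 cells. In the additive fit 0 of 23 passed for the line, where 2.45% of all genes did, so nothing is read from that count.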

How the data were processed

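Messenger RNA of 4 HCT116 samples was sequenced with an AmpliSeq whole-transcriptome panel, per the labels' protocols. The authors deposited raw counts of reads per target, 1 column per file, per the file headers. The submitters' processing notes name hg19; the aligner and counter are not given in the sources used here. In the series' text there are 2 replicates of each sample, and whether a column pools them is not stated, so each group counted as 1 library.

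Counts were scaled by TMM (edgeR 4.0.16) to CPM. A gene was compared where 1 of the 2 libraries reached 10 CPM, and counted as apart at 2-fold on log2(CPM + 1), which understates low genes. Folds have no pseudocount. Their 95% intervals are exact (Clopper-Pearson, scipy 1.17.1); those of a ratio of responses use a normal approximation on the log scale. Without molecular identifiers, PCR reads are not independent, so intervals cover counting error only. The floor of 3 reads is 0.131 to 0.157 CPM.

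The additive fit used glmQLFit and glmQLFTest after filterByExpr, at an adjusted p of 0.05; its SE is the absolute log2 fold change over the square root of F. DESeq2 1.42.0 was an alternative. Both computations were tested on simulated data. Members and lists were chosen with earlier results of these data known. The genes named were the 7 members, up to 8 of each list at 10 CPM or more and 2-fold apart, and the 5 closest in pattern to KRT7 and to KRT80; others were named after their values were seen. Coding sequences, used for identities between members and not reported here, came from GENCODE 29 (GRCh38) and gene order from RefSeq on GRCh38, so no coordinates are given. The RefSeq promoter table matched 2 of 7 members.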

Additional observations from a re-analysis of the deposited data

Results flagged for a closer look

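KRT19 lay on opposite sides of 1 in the 2 lines: the ratio of indole to DMF was 0.71 in wild type and 1.18 in the IDO1 line. Both ratios differed from 1 beyond counting error, and their directions were the same with library totals and with median-of-ratios size factors. The difference between the lines was not tested, as each group had 1 library.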

How the results depend on the processing

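Scaling by library totals moved the all-gene median with indole in wild type, on the log2 scale, from -0.04 to 0.14; the ratios of KRT7, KRT80, KRT8, KRT18, KRT19 and KRT23 there became 7.59, 9.64, 1.15, 1.26, 0.801 and 1.21. Of 28 member ratios, 10 left their counting interval with library totals and 0 did with median-of-ratios size factors. The sign turned in 1, KRT19 between the lines in indole, which was 0.986. With a minimum of 50 CPM, 1 keratin instead of 2 was at least 2-fold apart with indole in wild type and 1 between the lines in indole, because KRT80 is below that level. In the additive fit for indole, 0 keratins passed as reported, where 0 of 13122 genes did. With library totals 2 passed, where 6 of 13122 genes did, and without the filter 2, where 10 of 16748 did. Where 10 CPM was required in 2 libraries 1 passed, KRT7, and 5 of 8467 genes did. That setting leaves 5 members, without KRT80 and KRT20. Why KRT7, and KRT80 where tested, passed in these settings was not tested. For the line, 0 of the members tested passed under every alternative (5 where 10 CPM was required in 2 libraries, without KRT80 and KRT20), the adjusted p of KRT80 being 0.0561 without the filter, and DESeq2 called 86 genes in all against 322. At least 10 CPM in 2 libraries called 74. TMM without the library of wild type with indole, chosen after seeing the data, changed no count. Leaving out a library of the additive fit leaves no residual degree of freedom. No paired analysis was possible because each group has 1 library and the labels carry no replicate numbers. The few reads of KRT20 limit what could be seen of it.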

Other observations

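Of the other intermediate filament genes, 4 of 12 tested rose in the IDO1 line in the additive fit with edgeR and 0 fell, where 2.03% of all genes rose and 0.419% fell: VIM, the mesenchymal filament vimentin, and the neuronal filament genes NEFL, NEFM and INA. VIM had 88 and 55 reads in the wild type libraries and 1226 and 1120 in those of the IDO1 line, or 4.01 on the log2 scale (SE 0.271, adjusted p 3.2e-11). NEFL, NEFM and INA, named after their values were seen, had 0 to 2 reads per wild type library and 19 to 56 in the IDO1 line. They are also on the embryonic kidney list, which was drawn up with the difference between the lines known, so the counts of these lists overlap. SYNM, the filament linker synemin, was 2.99-fold higher with indole in wild type (2.29 to 3.95) and 1.29-fold in the IDO1 line (0.954 to 1.74). LMNB1, a lamin of the nuclear envelope, was 2.03-fold lower with indole in wild type (1.85 to 2.23) and 1.12-fold higher in the IDO1 line (1.04 to 1.21).

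Of 18 epithelial transcription factors compared with indole in wild type, 2 were at least 2-fold higher and 0 lower, where 1.36% and 1.54% of all genes were, with a median log2 ratio of 0.23. These were FOSL2, an AP-1 subunit, 2.21-fold (2.01 to 2.43), and KLF4, a factor of epithelial differentiation, 2.15-fold (1.96 to 2.36). In the IDO1 line their ratios were 0.857 (0.766 to 0.957) and 1.10 (0.983 to 1.22). Between the lines in indole, 3 of 18 were at least 2-fold lower in the IDO1 line and 0 higher, where 2.22% and 2.28% of all genes were: FOSL2, KLF4 and OVOL1. OVOL1, a repressor in epithelial differentiation, was 2.15-fold lower in the IDO1 line in indole (1.89 to 2.45). In the additive fit with edgeR, JUNB fell in the IDO1 line, by 0.86 on the log2 scale (SE 0.227, adjusted p 0.0315), and GATA4 rose; both were named after their values were seen.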
